A study of Mus musculus with 44 samples.

Results

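The effect of PFNA (perfluorononanoic acid, a fluorinated surfactant that persists in the environment) was examined in mouse ovarian follicles made to ovulate with human chorionic gonadotropin (hCG). All 23 RNA libraries that the labels assign to the ovulation window were used, of 44 samples in the whole series. The control group was 12 follicle samples given hCG, and the PFNA group was 11 follicle samples given hCG together with PFNA. Every library came from wild-type follicles of CD-1 mice, an outbred stock. Both groups therefore shared the hormone, and no library of this window lacked it. The labels give no PFNA dose, no exposure or sampling time, no animal age and no batch. They also do not say whether libraries of a group came from separate animals or cultures, so p-values measure only the spread between these samples, which may be technical.

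Ovulation is set off by luteinizing hormone, and hCG binds the same receptor, LHCGR, on the granulosa and theca cells of a preovulatory follicle. The receptor raises cAMP, and granulosa cells then release EGF-like ligands that activate ERK signalling, induce prostaglandin synthesis through PTGS2, and induce the transcription factors PGR and RUNX1. The cumulus around the oocyte expands in a hyaluronan matrix, proteases open the follicle wall, genes of the growing follicle such as Fshr and Cyp19a1 are turned down, and the cells begin to luteinize. In what follows a list called hCG-driven or hCG-lowered carries that name from this background knowledge and not from a comparison in these data. PFNA is known to activate the fatty acid receptor PPARA in rodents, and PPAR target genes were therefore among the lists described.

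Library totals ran from 11961105 to 16045751 estimated counts in controls and from 10600931 to 19511531 with PFNA (permutation adjusted p = 0.37, two-sided). More genes had a count with PFNA, 15517 to 16884 against 15056 to 15665 in controls (permutation p = 1e-05, the lower limit with 100000 permutations; adjusted p = 2.7e-05 over 11 library measures). PFNA replicates 5 and 6 stood apart from the other PFNA libraries, with 15664 and 15517 genes, inside or next to the control range. They also had the highest scores on the second principal component (7.42% of the variance), at 35.8 and 50.7, whereas the first component (61.96%) separated every control from every PFNA library. Granulosa markers summed to 12767 to 16075 CPM in controls and 12868 to 17078 CPM with PFNA (permutation adjusted p = 0.12), and all 10 had a mean of at least 1 CPM in both groups. That sum is weighted by abundant members, with Inha alone at a mean of 7352 CPM in controls and 5538 CPM with PFNA. Gene by gene, 7 of the 10 rose, 6 of them beyond 2-fold, and 1 fell (median log2 fold change 1.32). Their mean log2(CPM + 1), relative to the mean of the controls, was 0.53 to 1.51 in PFNA libraries against -0.45 to 0.31 in controls. Several of these markers, among them Fshr, Cyp19a1 and Hsd17b1, are named again below among genes of the preovulatory follicle. The marker rise is therefore not a result separate from that one, nor a measure of granulosa cell content. Summed markers of several other cell types were higher with PFNA. Smooth muscle markers had medians of 104 and 403 CPM (control range 41.2 to 225, PFNA range 197 to 1000.0) and all 8 were in the table. Much of that sum came from Tagln and Acta2, at means of 20.1 and 46.4 CPM in controls and 256 and 137 CPM with PFNA. Of 7 members tested, 4 rose, 1 of them beyond 2-fold, and 3 were not called. In controls 3 of the 8 averaged under 1 CPM. Endothelial markers had medians of 109 and 200 CPM (33.3 to 160 and 42.7 to 461), and theca and stroma markers had medians of 1569 and 1834 CPM (277 to 2288 and 1493 to 3417). Oocyte markers had medians of 165 and 417 CPM (137 to 523 and 56.6 to 683), with PFNA replicate 5 the lowest of all. Surface epithelium markers had medians of 16.9 and 51.2 CPM (10.96 to 29.3 and 24.8 to 82.7), most of it from Krt8, a keratin that some granulosa cells also express, at a mean of 12.4 CPM in controls and 42.4 CPM with PFNA. Only 3 members of that list were tested, of which Krt8 and Krt18 rose and Epcam fell (the call of Krt18 was lost without PFNA replicate 4, edgeR adjusted p = 0.073), and 4 averaged under 1 CPM in controls. The permutation adjusted p was 2.7e-05 for smooth muscle and surface epithelium, 0.011 for endothelial, 0.017 for oocyte and 0.027 for theca and stroma markers. The 1 red blood cell marker in the table was near 0 in both groups (medians 0.275 and 0.621 CPM, adjusted p = 0.97 in the same test). Of the marker genes in the table, none was at 0 in all libraries of a group. In bulk samples, fewer cells of a type and less RNA per cell cannot be told apart.

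Across all genes, most transcripts differed between the groups. In edgeR's quasi-likelihood test of 13441 genes, 5101 (38.0%) were called higher with PFNA and 4736 (35.2%) lower at a Benjamini-Hochberg adjusted p under 0.05, together 73.2%. Because so many genes passed, a second test asked for a change beyond 2-fold (edgeR's glmTreat): 1380 genes (10.3%) were called higher and 711 (5.29%) lower, together 15.6%. Genes both called and changed at least 2-fold numbered 2434 higher (18.1%) and 1212 lower (9.02%). Every PFNA library lay above every control for 1601 genes (11.9%) and below every control for 1893 (14.1%). The median log2 fold change over all genes tested was 0.04. Calls depended on the level of the gene. Of 2938 genes under 5 CPM, 50.5% were called higher and 13.8% lower, while of 2506 genes over 100 CPM, 31.1% were called higher and 47.9% lower. Counts of list members below are to be read against 38.0% higher and 35.2% lower over all genes. Lists of abundant genes are better read against the shares at their level. At 20 to 100 CPM these were 30.6% higher and 46.8% lower.

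**Figure D1:**
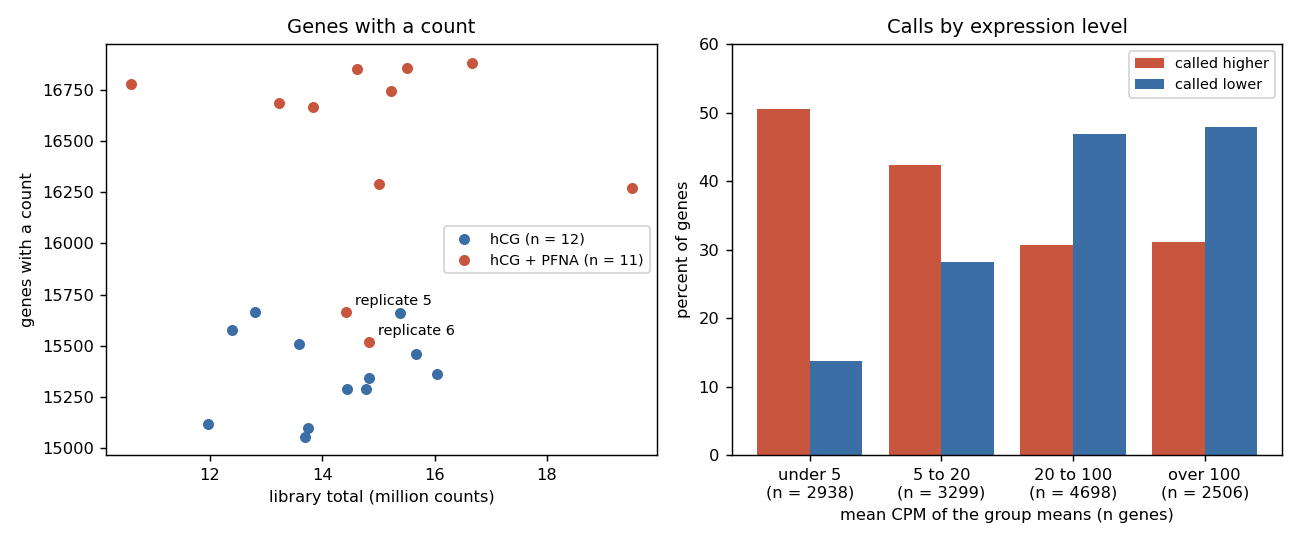
Left, genes with at least some counts (y axis) against the library total (x axis), 1 point per library; 9 of the 11 PFNA libraries (red) lie above every control (blue), and PFNA replicates 5 and 6 lie among or beside the controls. Right, percent of tested genes called higher (red) or lower (blue) with PFNA by mean CPM of the 2 groups; the share called higher is 50.5% under 5 CPM and 31.1% over 100 CPM.

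The 4 marker genes chosen for this window all changed, 3 of them downward, and no PFNA library overlapped a control for any of them. Ptgs2 (chr1:150100031-150108234), which encodes the inducible prostaglandin synthase, was at 3283 to 8605 CPM in controls (median 4985) and 74.7 to 248 CPM with PFNA (median 160.4). It fell 36.9-fold (log2 fold change -5.21, SE 0.25, edgeR adjusted p = 7.7e-15). Runx1 (chr16:92601466-92826074), a transcription factor of luteinizing granulosa cells, was at 1147 to 1788 CPM in controls (median 1347) and 83.95 to 166 CPM with PFNA (median 113). It fell 11.3-fold (log2 fold change -3.49, SE 0.12, edgeR adjusted p = 1.0e-17) and had the smallest p of all genes that fell and met the naming rule. Pgr (chr9:8899833-8968611), the progesterone receptor without which follicles do not rupture, was at 449.6 to 1611 CPM in controls (median 761) and 12.7 to 219 CPM with PFNA (median 46.6). It fell 13.8-fold (log2 fold change -3.78, SE 0.42, edgeR adjusted p = 1.9e-08), and its PFNA libraries spread over a wider range than those of Ptgs2 or Runx1. Jun (chr4:95049036-95052222), a subunit of the AP-1 factor, moved the other way, at 143 to 179 CPM in controls (median 164) and 873 to 1312 CPM with PFNA (median 978). It rose 6.40-fold (log2 fold change 2.68, SE 0.07, edgeR adjusted p = 3.1e-20), the smallest p of all genes named.

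**Figure D2:**
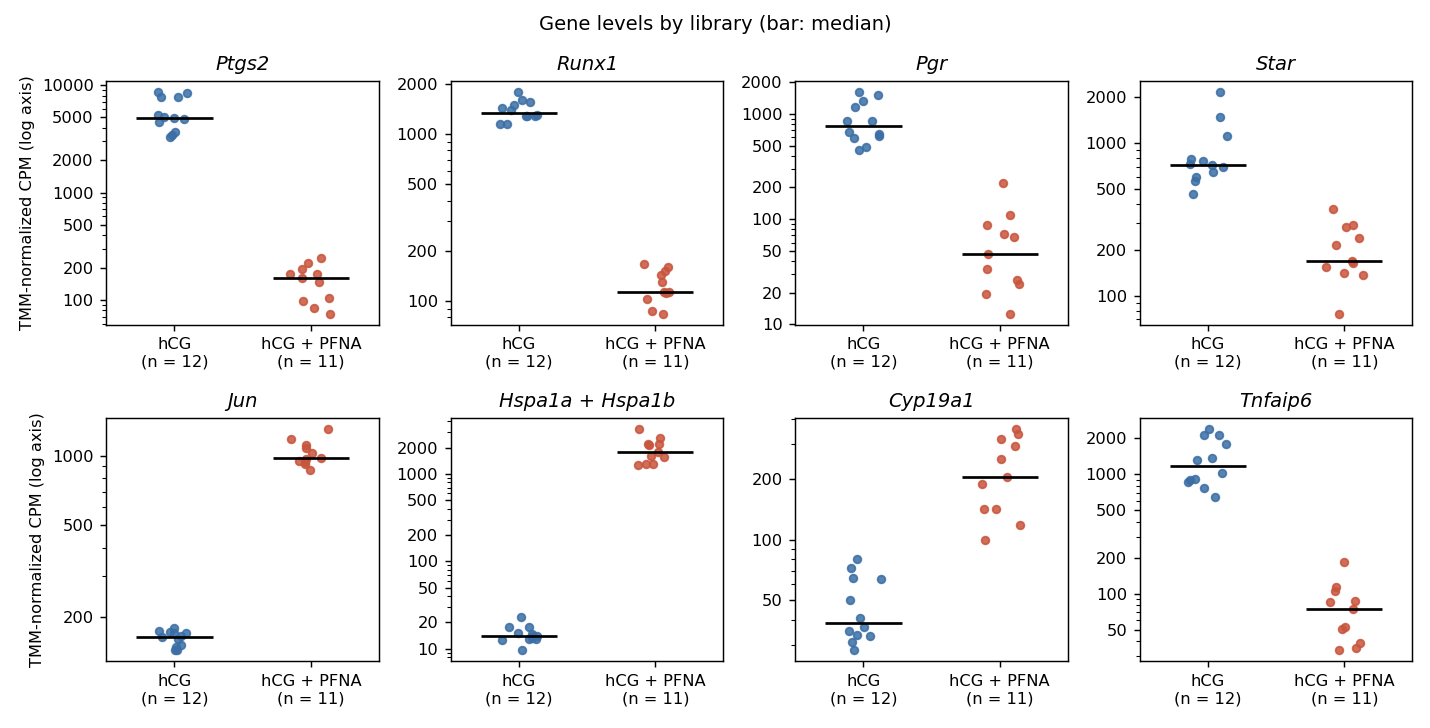
TMM-normalized CPM (log y axis) of 8 genes in each library, 12 controls given hCG (blue) and 11 libraries given hCG and PFNA (red), with a bar at the group median. In each panel no PFNA library overlaps a control; Ptgs2, Runx1, Pgr, Star and Tnfaip6 are lower with PFNA, and Jun, the sum of Hspa1a and Hspa1b, and Cyp19a1 are higher.

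By smallest p among genes changed at least 2-fold, the 10 leading genes that rose were Jun, Hsd17b11, Hspa1b, Hspa1a, Bcar3, Myo6, Etfdh, Zfp385b, Srf and Cd3e, and the 10 that fell were Runx1, Trim25, Phf23, Heg1, Irf2bpl, Notch2, Sqle, Ssh1, Pgp and Poldip3. Hsd17b11, a short-chain dehydrogenase found on lipid droplets, was at 12.8 to 19.99 CPM in controls (median 14.97) and 141 to 244 CPM with PFNA (median 169.8) (log2 fold change 3.47, SE 0.09, edgeR adjusted p = 7.5e-20). Srf, the serum response factor that drives immediate-early and actin genes, was at 46.4 to 59.6 CPM in controls (median 54.0) and 159 to 264 CPM with PFNA (median 186), and its log2 fold change was 1.84. Myo6, an unconventional myosin, and Bcar3, an adaptor of cell adhesion signalling, rose with log2 fold changes of 2.66 and 2.79. Among the genes that fell, Notch2, the main Notch receptor of granulosa cells, was at 575 to 882 CPM in controls (median 649) and 102 to 166 CPM with PFNA (median 138) (log2 fold change -2.29). Heg1, a junction protein, fell by a log2 fold change of -2.33, and Trim25, a ubiquitin ligase of the antiviral response, by -1.97. For all of these genes the groups did not overlap.

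Upstream sequences are shown for 6 genes that the results turn on, 3 that fell and 3 that rose, so that the letters can be read beside the values. Each is the window of 250 bases before the annotated start, 5′ to 3′ on the strand of the gene, from RefSeq on GRCm38.p6, and capitals mark a match to a motif searched on both strands. In Areg (chr5:91139349-91139598, plus strand) the capitals mark the cAMP response element TGACGTCA, which begins 61 bases before the start. In Ptgs2 (chr1:150099781-150100030, plus strand) they mark the RUNX letters TGTGGT on the other strand, and in Tnfaip6 (chr2:52037863-52038112, plus strand) the AP-1 letters TGANTCA. In Hspa1a (chr17:34972157-34972406, minus strand), Hspa1b (chr17:34959239-34959488, minus strand) and Hspb1 (chr5:135887669-135887918, plus strand) they mark the heat shock element GAANNTTC.
Areg: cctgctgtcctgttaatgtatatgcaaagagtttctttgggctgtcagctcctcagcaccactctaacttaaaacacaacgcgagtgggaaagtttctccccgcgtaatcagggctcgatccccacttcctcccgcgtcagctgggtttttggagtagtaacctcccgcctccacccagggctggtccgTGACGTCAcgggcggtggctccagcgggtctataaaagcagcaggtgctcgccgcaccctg
Ptgs2: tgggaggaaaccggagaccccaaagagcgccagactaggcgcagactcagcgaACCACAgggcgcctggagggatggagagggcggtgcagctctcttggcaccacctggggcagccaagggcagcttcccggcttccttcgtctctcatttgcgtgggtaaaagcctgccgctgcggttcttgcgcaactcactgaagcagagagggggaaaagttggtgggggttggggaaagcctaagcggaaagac
Tnfaip6: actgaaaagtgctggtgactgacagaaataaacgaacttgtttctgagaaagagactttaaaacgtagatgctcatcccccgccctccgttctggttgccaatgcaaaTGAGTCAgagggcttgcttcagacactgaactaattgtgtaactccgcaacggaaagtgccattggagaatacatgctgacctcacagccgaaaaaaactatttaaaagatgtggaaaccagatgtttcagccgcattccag
Hspa1a: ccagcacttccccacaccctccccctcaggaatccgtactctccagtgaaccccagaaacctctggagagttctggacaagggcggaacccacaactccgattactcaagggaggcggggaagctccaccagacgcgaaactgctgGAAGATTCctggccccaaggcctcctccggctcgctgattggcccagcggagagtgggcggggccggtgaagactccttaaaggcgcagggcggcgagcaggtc
Hspa1b: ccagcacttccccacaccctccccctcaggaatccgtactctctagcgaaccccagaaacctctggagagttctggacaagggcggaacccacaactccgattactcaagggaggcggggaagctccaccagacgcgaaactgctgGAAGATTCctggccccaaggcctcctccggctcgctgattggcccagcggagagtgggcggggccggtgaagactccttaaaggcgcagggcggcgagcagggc
Hspb1: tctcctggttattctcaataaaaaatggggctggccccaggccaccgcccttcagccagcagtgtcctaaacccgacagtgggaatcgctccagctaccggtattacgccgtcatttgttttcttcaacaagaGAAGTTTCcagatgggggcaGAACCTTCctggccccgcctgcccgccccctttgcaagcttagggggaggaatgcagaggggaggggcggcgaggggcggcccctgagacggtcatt
A match is a description and not a site or a cause. Of all 32851 RefSeq windows of this length, 6.69% held GAANNTTC. The share was 6.01% for the 10618 tested genes with a window, 7.06% for 1076 genes called higher beyond 2-fold and 5.26% for 551 called lower beyond 2-fold. Other shares follow in the same order of all windows, tested genes, higher genes and lower genes. The longer heat shock element of 3 units, which contains the shorter, was in 0.466%, 0.443%, 0.744% and 0.181%. TGACGTCA was in 1.55%, 3.01%, 2.60% and 2.18%. TGANTCA was in 6.75%, 5.57%, 6.78% and 8.35%, and TGTGGT in 14.1%, 12.48%, 14.96% and 11.3%. The sterol regulatory element was in 0.0731%, 0.0659%, 0.0929% and 0.363%. For this element and the 3-unit heat shock element, the shares of the 1076 and 551 genes rest on very few genes, so they cannot be compared.

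EGF-like ligands carry the hCG signal from mural granulosa cells to the cumulus, and most of them were lower with PFNA. Of 12 members tested, 7 fell and 3 rose. Ereg (epiregulin) was at 1369 to 4363 CPM in controls (median 2192) and 36.9 to 744 CPM with PFNA (median 132), and it fell 12.8-fold (log2 fold change -3.68, SE 0.40, edgeR adjusted p = 1.6e-08). Areg (amphiregulin) was at 129 to 588 CPM in controls (median 259.5) and 16.1 to 174 CPM with PFNA (median 46.7) and fell 5.14-fold (log2 fold change -2.36, SE 0.35, edgeR adjusted p = 2.1e-06). For Ereg no PFNA library reached the controls, and for Areg 1 of 11 did. Btc (betacellulin) and Epgn (epigen) also fell, with log2 fold changes of -2.09 and -2.63, and so did Errfi1, a feedback inhibitor of the EGF receptor (-1.73). The receptor itself, Egfr, rose slightly (log2 fold change 0.49), and Hbegf, a ligand of low level here, rose from 2.97 to 6.82 CPM (median 3.81) in controls to 6.12 to 16.3 CPM (median 10.7). The largest log2 fold change of the list was 2.56, in a member not named here.

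In the prostaglandin list 8 of 16 members fell and 2 rose. Beside Ptgs2, the phospholipase Pla2g4a, which frees arachidonic acid, fell from 305 to 472 CPM (median 364) to 78.2 to 128 CPM (median 99.8) (log2 fold change -1.93, SE 0.09, edgeR adjusted p = 1.3e-15). The prostaglandin E receptor gene Ptger4 fell (log2 fold change -1.94), while Ptger2, another receptor of the same ligand, rose (0.97). Ptges, the terminal prostaglandin E synthase, was at 33.6 to 84.4 CPM in controls (median 62.3) and 20.4 to 117 CPM with PFNA (median 62.8) and was not called. Hpgd, which inactivates prostaglandins, rose from 2.84 to 6.57 CPM (median 4.22) to 9.51 to 65.04 CPM (median 34.7) (log2 fold change 2.93, SE 0.28, edgeR adjusted p = 1.1e-09), with no overlap between groups. Thus the synthase Ptgs2 and the inactivating enzyme Hpgd moved in opposite directions, and the terminal synthase did not pass.

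Genes of the hyaluronan matrix showed the widest fall of the hCG-driven lists by median, -1.41 over 12 members tested, of which 8 fell and 3 rose. Ptx3 (pentraxin 3), which ties hyaluronan chains together, was at 803 to 1476 CPM in controls (median 1116) and 5.20 to 30.96 CPM with PFNA (median 9.71). It fell 84.1-fold (log2 fold change -6.39, SE 0.33, edgeR adjusted p = 2.6e-14), with every PFNA library below every control. Tnfaip6, which transfers heavy chains onto hyaluronan, was at 643 to 2392 CPM in controls (median 1170.0) and 33.5 to 183 CPM with PFNA (median 74.4) and fell 17.3-fold (log2 fold change -4.11, SE 0.32, edgeR adjusted p = 4.6e-11). Vcan, the proteoglycan versican, and Il6, a cytokine made by expanding cumulus cells, fell with log2 fold changes of -2.79 and -4.22. Has2, the hyaluronan synthase, fell less and unevenly, at 220.2 to 424 CPM in controls (median 295) and 42.7 to 309 CPM with PFNA (median 194) (log2 fold change -0.90), with 8 of 11 PFNA libraries below every control. Hmmr, a hyaluronan-binding protein of dividing cells, rose (1.12).

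The proteases of follicle rupture were split, with 8 of 20 lower (40%) and 7 higher (35%). These counts were close to the shares over all genes, 35.2% lower and 38.0% higher. Plau, the urokinase plasminogen activator, was at 1408 to 3817 CPM in controls (median 1826) and 187 to 610.0 CPM with PFNA (median 327) and fell 6.16-fold (log2 fold change -2.62, SE 0.19, edgeR adjusted p = 8.8e-12). Adamts9 and the inhibitor Timp1 fell by similar amounts (log2 fold changes -2.60 and -2.01), and Adamts1 and Ctsl, both PGR targets in the mouse, fell less (-0.79 and -0.73). Plat, the other plasminogen activator, was at 49.3 to 99.8 CPM in controls (median 68.8) and 42.0 to 85.7 CPM with PFNA (median 75.7) and was not called. Adamts5 rose (1.39), with 9 of 11 PFNA libraries above every control.

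Of 20 genes tested in the list of Pgr and its known targets, 14 fell, 8 of them beyond 2-fold, and 4 rose, none beyond 2-fold. Cxcr4, a chemokine receptor, was at 65.2 to 205 CPM in controls (median 130.2) and 9.76 to 41.05 CPM with PFNA (median 20.4) and fell 5.47-fold (log2 fold change -2.45, SE 0.26, edgeR adjusted p = 7.0e-09). Prkg2, a cGMP-dependent kinase, and Snap25, a protein of vesicle fusion, fell with log2 fold changes of -2.67 and -2.53. Pparg, also a PGR target in the ovulating follicle, was at 105 to 316 CPM in controls (median 158) and 99.9 to 209.6 CPM with PFNA (median 164) and was not called. Edn2, the endothelin made shortly before rupture, was low in both groups (0.0624 to 4.05 CPM in controls (median 1.49) and 1.07 to 7.61 CPM with PFNA (median 2.88)) and was called higher (edgeR adjusted p = 0.028), a call lost without PFNA replicate 5, replicate 6 or both (adjusted p = 0.055, 0.07 and 0.16). Vegfa rose slightly (0.33).

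Among the transcription factors of luteinization 9 of 15 fell and 5 rose. Runx2 followed Runx1, at 184 to 461 CPM in controls (median 225) and 13.3 to 113 CPM with PFNA (median 32.5) (log2 fold change -2.74). Cebpb and Cebpa, the C/EBP factors needed downstream of ERK, fell by 1.01 and 0.95 on the log2 scale, each with no overlap between groups. Crem, an inhibitor and target of cAMP signalling, and Fosl1 fell (-1.70 and -1.39). The nuclear receptors Nr4a2 and Nr4a3 rose (1.81 and 1.44), from 2.84 to 13.2 CPM (median 4.48) and 22.2 to 70.6 CPM (median 35.3) in controls.

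In the list of MAP kinase feedback phosphatases and Sprouty proteins, which is not limited to ERK, 10 of 14 members fell and 2 rose. The median was -1.25, and 7 members were called lower beyond 2-fold. Dusp6, the phosphatase specific for ERK, was at 138 to 262 CPM in controls (median 159) and 42.4 to 100.4 CPM with PFNA (median 56.3), with no overlap (log2 fold change -1.53, SE 0.15, edgeR adjusted p = 9.6e-10). Spry2 and Dusp10 fell with log2 fold changes of -1.46 and -2.02, and Rgs2, which limits G protein signalling, with -2.12. Dusp1, which also responds to stress kinases, was at 18.1 to 29.4 CPM in controls (median 21.8) and 13.5 to 30.99 CPM with PFNA (median 22.7) and was not called.

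Genes of cAMP turnover moved both ways, 13 of 25 lower and 7 higher. The phosphodiesterases Pde4b and Pde4d fell, Pde4d from 40.8 to 79.2 CPM (median 54.1) to 2.73 to 16.8 CPM (median 6.74) (log2 fold change -2.91, SE 0.21, edgeR adjusted p = 6.6e-12), and Pde4b with a log2 fold change of -3.08. Pde7b rose (2.10). Prkar2b, a regulatory subunit of protein kinase A that FSH induces in granulosa cells, was at 258 to 963 CPM in controls (median 546) and 2596 to 5569 CPM with PFNA (median 3222) and rose 5.95-fold (log2 fold change 2.57, SE 0.17, edgeR adjusted p = 8.0e-13). Rapgef4, a cAMP-activated exchange factor, rose from 1.38 to 5.93 CPM (median 3.63) to 25.4 to 53.5 CPM (median 40.4), with no overlap. Of the 3 other regulatory subunit genes, whose values were seen before they were picked out, Prkar2a and Prkar1a fell (-0.84 and -0.23) and Prkar1b was not called (0.23). Scaled by library totals alone, the call of Prkar1a was lost and Prkar1b was called higher (edgeR adjusted p = 0.084 and 0.0048). The call of Prkar1a was also lost among genes with a mean of at least 5 CPM, and Prkar1b was called higher there and without PFNA replicate 2 (adjusted p = 0.1, 0.03 and 0.039).

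Luteal steroidogenesis was lower in 11 of 18 members and higher in 1. Star, which carries cholesterol into mitochondria for steroid synthesis, was at 466 to 2148 CPM in controls (median 719) and 76.4 to 368 CPM with PFNA (median 168) and fell 4.38-fold (log2 fold change -2.13, SE 0.27, edgeR adjusted p = 1.3e-07), with no overlap. Cyp11a1, which makes pregnenolone from that cholesterol, was at 549 to 1105 CPM in controls (median 731) and 117 to 1012 CPM with PFNA (median 223) (log2 fold change -1.14). In 9 of 11 PFNA libraries it lay below every control, and without PFNA replicates 5 and 6 the log2 fold change was -1.72. Hsd3b1, the next enzyme toward progesterone, was at 1327 to 2478 CPM in controls (median 1874) and 1029 to 2756 CPM with PFNA (median 1430.0) and was not called, although without PFNA replicate 2 it was (log2 fold change -0.33, adjusted p = 0.013). Scarb1, which takes up lipoprotein cholesterol, and the lipase Lipe fell with log2 fold changes of -1.66 and -2.31. Sult1e1, an estrogen sulfotransferase of the ovulating follicle, was at 1275 to 3783 CPM in controls (median 1921) and 9.71 to 292 CPM with PFNA (median 48.1) and fell 28.6-fold (log2 fold change -4.84, SE 0.45, edgeR adjusted p = 1.0e-09). Nr5a2, an orphan nuclear receptor required for ovulation, was the member that rose, at 132 to 224 CPM in controls (median 182) and 285 to 919 CPM with PFNA (median 420.1) (log2 fold change 1.35).

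Cholesterol synthesis and uptake genes fell in 19 of 29 cases, 11 of them beyond 2-fold, and 5 rose. Sqle, a rate-limiting enzyme late in the pathway, was at 279 to 451 CPM in controls (median 356) and 31.3 to 62.1 CPM with PFNA (median 38.4) and fell 8.27-fold (log2 fold change -3.05, SE 0.13, edgeR adjusted p = 1.9e-16). No PFNA library of Sqle lay within the control range. Hmgcs1, Idi1, Msmo1 and the sterol sensor partner Insig1 fell with log2 fold changes of -2.57, -1.91, -2.19 and -1.77. Tm7sf2 and Pmvk rose (0.96 and 0.88). The largest log2 fold change of the list was 3.66, in a member not named here, and 1 member was called higher beyond 2-fold. In fatty acid synthesis 11 of 24 members fell and 7 rose, with Fasn, the fatty acid synthase, at 542 to 704 CPM in controls (median 600.0) and 155 to 246 CPM with PFNA (median 209) (log2 fold change -1.56). Acly and Scd1 fell (-1.49 and -1.47), and Acacb, Gpam and Lpin1 rose (1.91, 1.13 and 1.20). Of 11 LXR and efflux genes 4 rose and 4 fell, close to the shares over all genes. The cholesterol exporter Abca1 was lower (-1.82) and Abcg1 higher (2.06).

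Genes of the preovulatory follicle, which hCG normally lowers, were higher with PFNA. Of 29 tested, 22 rose (14 beyond 2-fold) and 4 fell (0 beyond 2-fold), with a median of 1.29. Fshr, the FSH receptor, was at 8.33 to 22.7 CPM in controls (median 13.4) and 37.2 to 87.5 CPM with PFNA (median 61.8) and rose 4.61-fold (log2 fold change 2.20, SE 0.16, edgeR adjusted p = 4.7e-12). Cyp19a1, the aromatase that makes estradiol, was at 28.1 to 79.9 CPM in controls (median 38.6) and 99.9 to 356 CPM with PFNA (median 206) and rose 4.70-fold (log2 fold change 2.23, SE 0.24, edgeR adjusted p = 7.7e-09). In both genes every PFNA library was above every control. Hsd17b1, which makes estradiol from estrone, and Foxo1, a transcription factor of growing granulosa cells, rose with log2 fold changes of 2.02 and 1.98. Grb14, an adaptor that restrains insulin receptor signalling, was at 28.96 to 64.3 CPM in controls (median 38.7) and 379.7 to 727 CPM with PFNA (median 585) and rose 12.99-fold (log2 fold change 3.70, SE 0.15, edgeR adjusted p = 3.1e-16). The peptide Nppc and its receptor Npr2, which hold the oocyte in meiotic arrest through cGMP, rose with log2 fold changes of 1.29 and 1.72, each with no overlap. Inhbb, an inhibin and activin subunit, rose from 21.6 to 234 CPM (median 69.7) to 130.4 to 1538 CPM (median 809.5) (log2 fold change 3.37), whereas Inha, the subunit of all inhibins, fell slightly (-0.41). Slc38a3, a glutamine transporter, was nearly absent from controls (0.0686 to 1.43 CPM (median 0.390)) and at 17.3 to 202 CPM (median 71.4) with PFNA. Amh was called higher (log2 fold change 3.15, SE 0.88, edgeR adjusted p = 0.0025), but its levels overlapped (0.149 to 3.87 CPM in controls (median 0.787) and 0 to 76.5 CPM with PFNA (median 2.73)), with 3 PFNA libraries above every control and 2 below, and without PFNA replicate 10 the log2 fold change was 1.69 (adjusted p = 0.038). Ccnd2, the cyclin that FSH induces in granulosa cells, went against the list, at 184 to 291 CPM in controls (median 218) and 57.5 to 147 CPM with PFNA (median 93.4) (log2 fold change -1.19).

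Cell cycle genes rose in 18 of 32 cases and fell in 5, with 1 member beyond 2-fold in each direction. Ccnb2, a mitotic cyclin, was at 4.13 to 14.6 CPM in controls (median 7.08) and 15.6 to 51.5 CPM with PFNA (median 37.3) (log2 fold change 2.17, SE 0.19, edgeR adjusted p = 2.9e-10). E2f1 and Kif11 rose (1.09 and 0.98), and Ccnd3 and Pcna fell (-1.04 and -0.75). Mki67, a marker of cycling cells, was at 63.9 to 133 CPM in controls (median 97.4) and 46.9 to 195 CPM with PFNA (median 103) and was not called, although without PFNA replicate 5 it was (log2 fold change 0.34, adjusted p = 0.049). Among CDK inhibitors 2 of 6 fell and 1 rose, with Cdkn1b, which hCG raises in luteinizing cells, at a log2 fold change of 0.47 and Cdkn1a not called (243 to 552 CPM in controls (median 412) and 184 to 496 CPM with PFNA (median 364)).

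**Figure D3:**
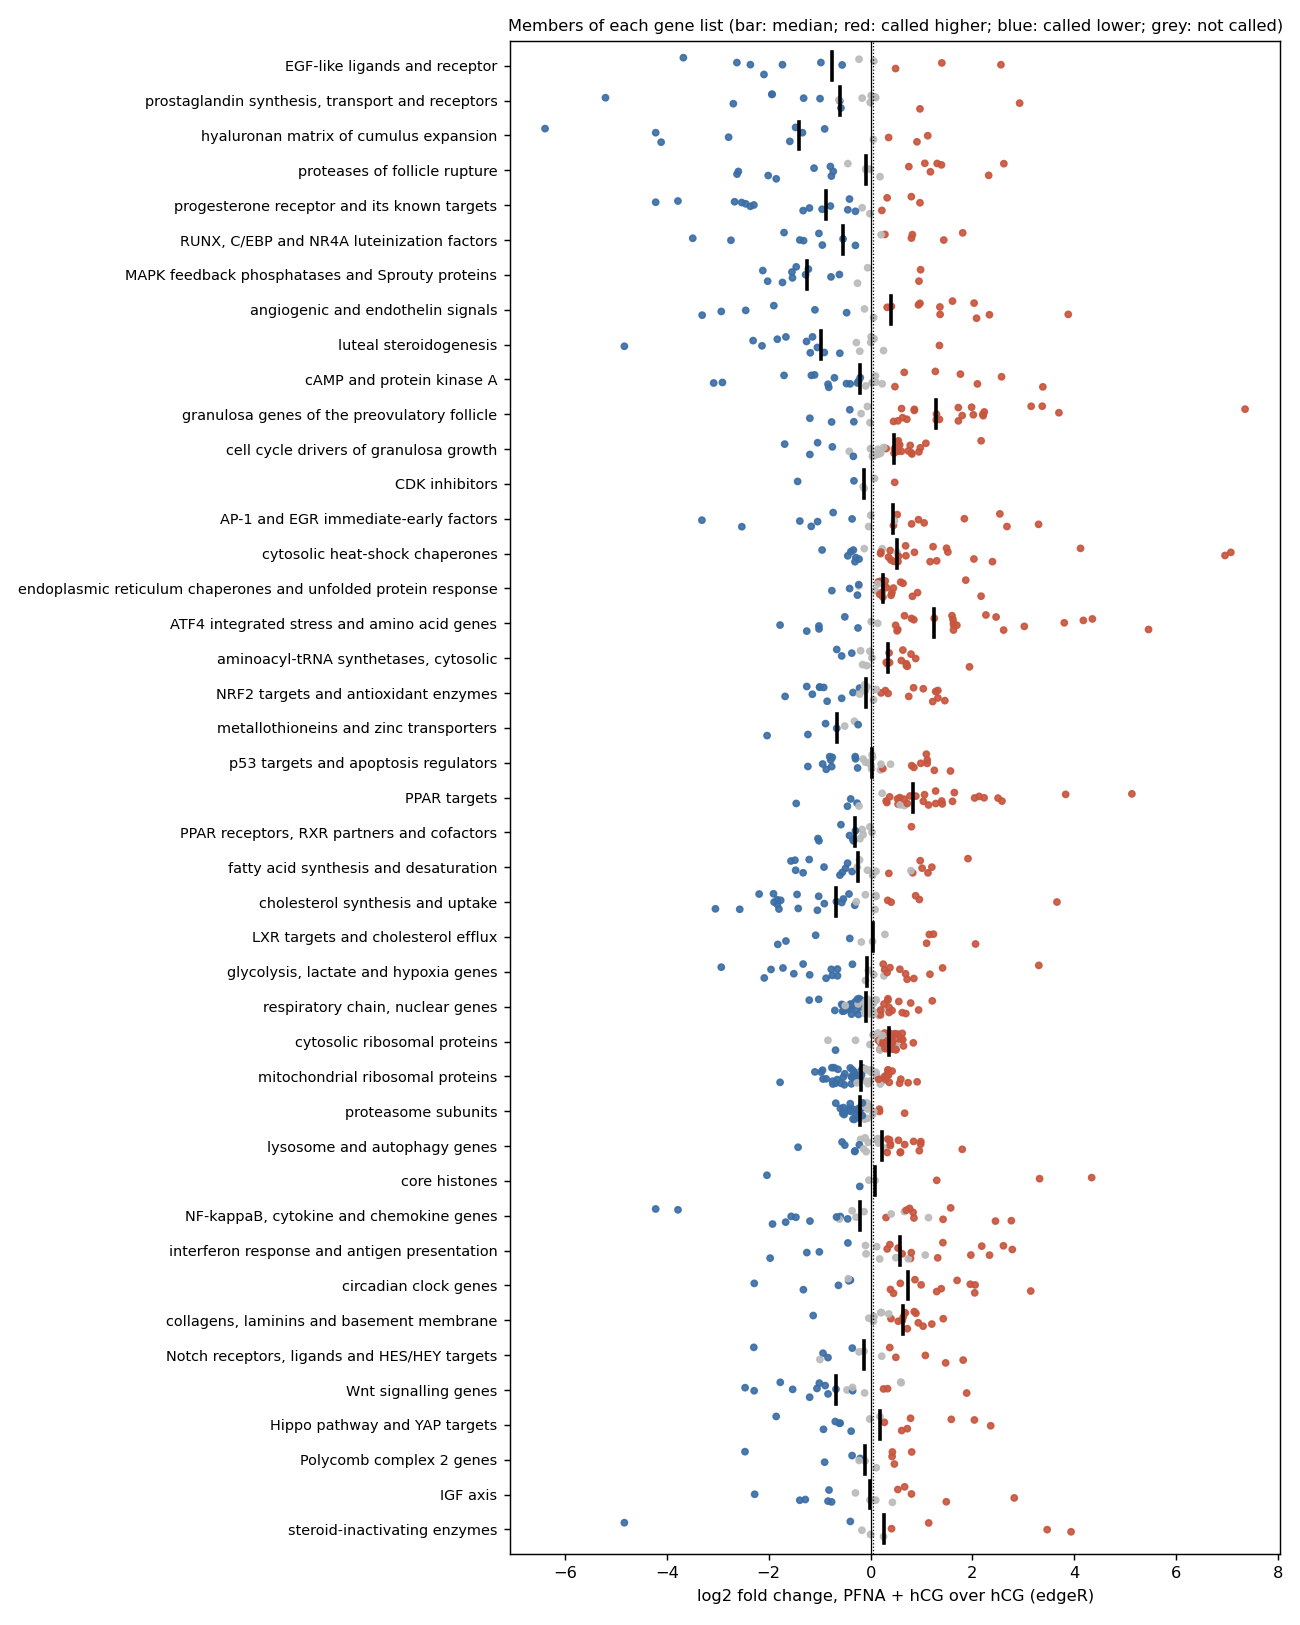
Log2 fold change of PFNA and hCG over hCG alone (x axis, edgeR) for each tested member of 43 gene lists (rows), red where called higher, blue where called lower and grey where not called, with a black bar at the list median and a dotted line at the median of all genes tested (0.04). Medians are lowest for the hyaluronan matrix (-1.41) and MAP kinase feedback lists (-1.25) and highest for preovulatory granulosa genes (1.29) and ATF4 genes (1.25).

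The stress-induced HSP70 genes rose. Hspa1a (chr17:34969359-34972156) and Hspa1b (chr17:34956429-34959238) encode the stress-induced HSP70 and are near-identical copies, with the same base at 98.8% of positions in the windows printed above, so how the reads divide between them is uncertain. Their sum was 9.55 to 23.2 CPM in controls (median 14.0) and 1253 to 3295 CPM with PFNA (median 1811), a ratio of means of 131. No PFNA library came near the controls in that sum. Hspb1, the small heat shock protein HSP27, was at 6.08 to 9.92 CPM in controls (median 7.71) and 88.03 to 225 CPM with PFNA (median 139) and rose 17.4-fold (log2 fold change 4.12, SE 0.16, edgeR adjusted p = 1.8e-16). Over the list, 21 of 31 chaperone genes rose, 8 beyond 2-fold, and 7 fell, with a median of 0.52. The constitutive Hspa8, the HSP90 gene Hsp90aa1 and the co-chaperone Bag3 rose with log2 fold changes of 1.52, 1.23 and 1.17, and Hsph1 and Dnajb1 rose less (0.86 and 0.46). Fkbp4, a co-chaperone of steroid receptors, fell (-0.95). Jun, which rose, holds the letters GAATCTTC once in its upstream window, 128 bases before the start. The motif GAANNTTC was in 6.01% of windows of tested genes and 7.06% of those called higher beyond 2-fold. A link between the letters and the rise was not tested.

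Immediate-early factors moved in both directions, 9 of 19 higher (47.4%) and 7 lower (36.8%), beside 38.0% and 35.2% over all genes. Beside Jun, Atf3, a stress-induced repressor, was at 5.89 to 23.6 CPM in controls (median 11.1) and 66.96 to 157 CPM with PFNA (median 122) (log2 fold change 3.30, SE 0.21, edgeR adjusted p = 1.1e-12), and Fosb rose with a log2 fold change of 2.54. Egr3 and Ier5 fell (-2.53 and -3.31), as did Junb (-1.17). Fos rose slightly, at 44.9 to 72.5 CPM in controls (median 55.6) and 44.9 to 145 CPM with PFNA (median 72.6), with 6 of 11 PFNA libraries above every control. The AP-1 family was thus split, with Jun, Fosb and Fos higher and Junb, Fosl1 and Fosl2 lower (-0.36 for Fosl2, -0.24 when scaled by library totals alone).

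Targets of the integrated stress response, in which ATF4 turns on amino acid and apoptosis genes, rose in 21 of 29 cases, 15 beyond 2-fold, and fell in 6. Ddit3 (CHOP) was at 2.86 to 6.66 CPM in controls (median 5.13) and 25.2 to 49.1 CPM with PFNA (median 28.3) and rose 6.12-fold (log2 fold change 2.61, SE 0.14, edgeR adjusted p = 1.3e-14). Trib3 and Chac1, both ATF4 and CHOP targets, rose with log2 fold changes of 4.18 and 4.36, and Gdf15, a stress-induced hormone, rose from 0 to 1.29 CPM (median 0.462) to 9.95 to 45.8 CPM (median 23.9). Pck2 and Asns, enzymes of amino acid supply, rose by 2.46 and 1.60 on the log2 scale. Transcripts of Atf4 itself were at 324 to 519 CPM in controls (median 437) and 325 to 579.8 CPM with PFNA (median 409) and were not called. Ddit4 and the cystine transporter Slc7a11 went against the list (-1.78 and -1.25). Cytosolic aminoacyl-tRNA synthetases rose in 12 of 20 cases and fell in 3, with Nars at 1.94 and Hars at -0.67. Of 24 endoplasmic reticulum chaperone and unfolded protein response genes 17 rose and 4 fell, with a median of 0.25. Herpud1 and Derl3, which take part in the removal of misfolded proteins, rose (1.87 and 2.17), Hspa5 (BiP) rose slightly, at 1530.0 to 1987 CPM in controls (median 1763) and 1841 to 2508 CPM with PFNA (median 2088) (log2 fold change 0.24, or 0.37 when scaled by library totals alone), and Ern1, the sensor IRE1, fell (-0.76).

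Other stress lists differed in direction. Of 28 NRF2 and antioxidant genes 11 rose (39.3%) and 10 fell (35.7%), close to the shares over all genes. Hmox1 (heme oxygenase) and Txnrd1 rose (1.46 and 1.03) while Sod2 and Gsta4 fell (-1.14 and -1.68). Metallothionein and zinc genes fell in 5 of 7 cases and rose in 0, with Mt2 at 87.6 to 439 CPM in controls (median 216) and 19.7 to 88.05 CPM with PFNA (median 59.8). Of 29 p53 and apoptosis genes 9 rose and 10 fell, near the shares over all genes, with a median of 0.02. Bbc3 and Bcl2 rose (1.11 and 1.09) and Bcl2l11 and Bak1 fell (-0.94 and -0.87). Of these named genes, those that promote apoptosis moved both ways (Bbc3 up, Bcl2l11 and Bak1 down), and Bcl2, which opposes it, rose.

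PPAR target genes, which the fatty acid receptors turn on for lipid oxidation, rose in 26 of 34 cases, 12 beyond 2-fold, and fell in 4. Acot2, a mitochondrial acyl-CoA thioesterase, was at 1.51 to 5.42 CPM in controls (median 3.09) and 58.98 to 152 CPM with PFNA (median 112) and rose 35.1-fold (log2 fold change 5.13, SE 0.20, edgeR adjusted p = 1.0e-16). Pdk4, the kinase that shuts pyruvate dehydrogenase, was at 23.2 to 82.6 CPM in controls (median 54.3) and 215 to 414 CPM with PFNA (median 321) (log2 fold change 2.50). Each had all 11 PFNA libraries above every control. Etfdh, which passes electrons from fatty acid oxidation to the respiratory chain, and Creb3l3 rose with log2 fold changes of 2.23 and 3.83. Angptl4 and Plin2 rose less (1.28 and 0.89). Cpt1a, which brings fatty acids into mitochondria, was at 234 to 351 CPM in controls (median 274) and 83.01 to 129 CPM with PFNA (median 100.3) and fell 2.75-fold (log2 fold change -1.46, SE 0.08, edgeR adjusted p = 2.1e-14), and Acadm fell slightly (-0.39). The receptors did not rise. Ppara was low and fell (3.21 to 9.37 CPM in controls (median 5.03) and 1.28 to 4.85 CPM with PFNA (median 2.71)), Pparg was not called, and Ppard (-0.15, adjusted p = 0.071) was called lower only without PFNA replicate 3 or control replicate 9 or 10 (log2 fold changes -0.17, -0.17 and -0.18) or without a filter on low counts (-0.18). Over the receptors, RXR partners and cofactors 7 of 13 fell and 1 rose.

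**Figure D4:**
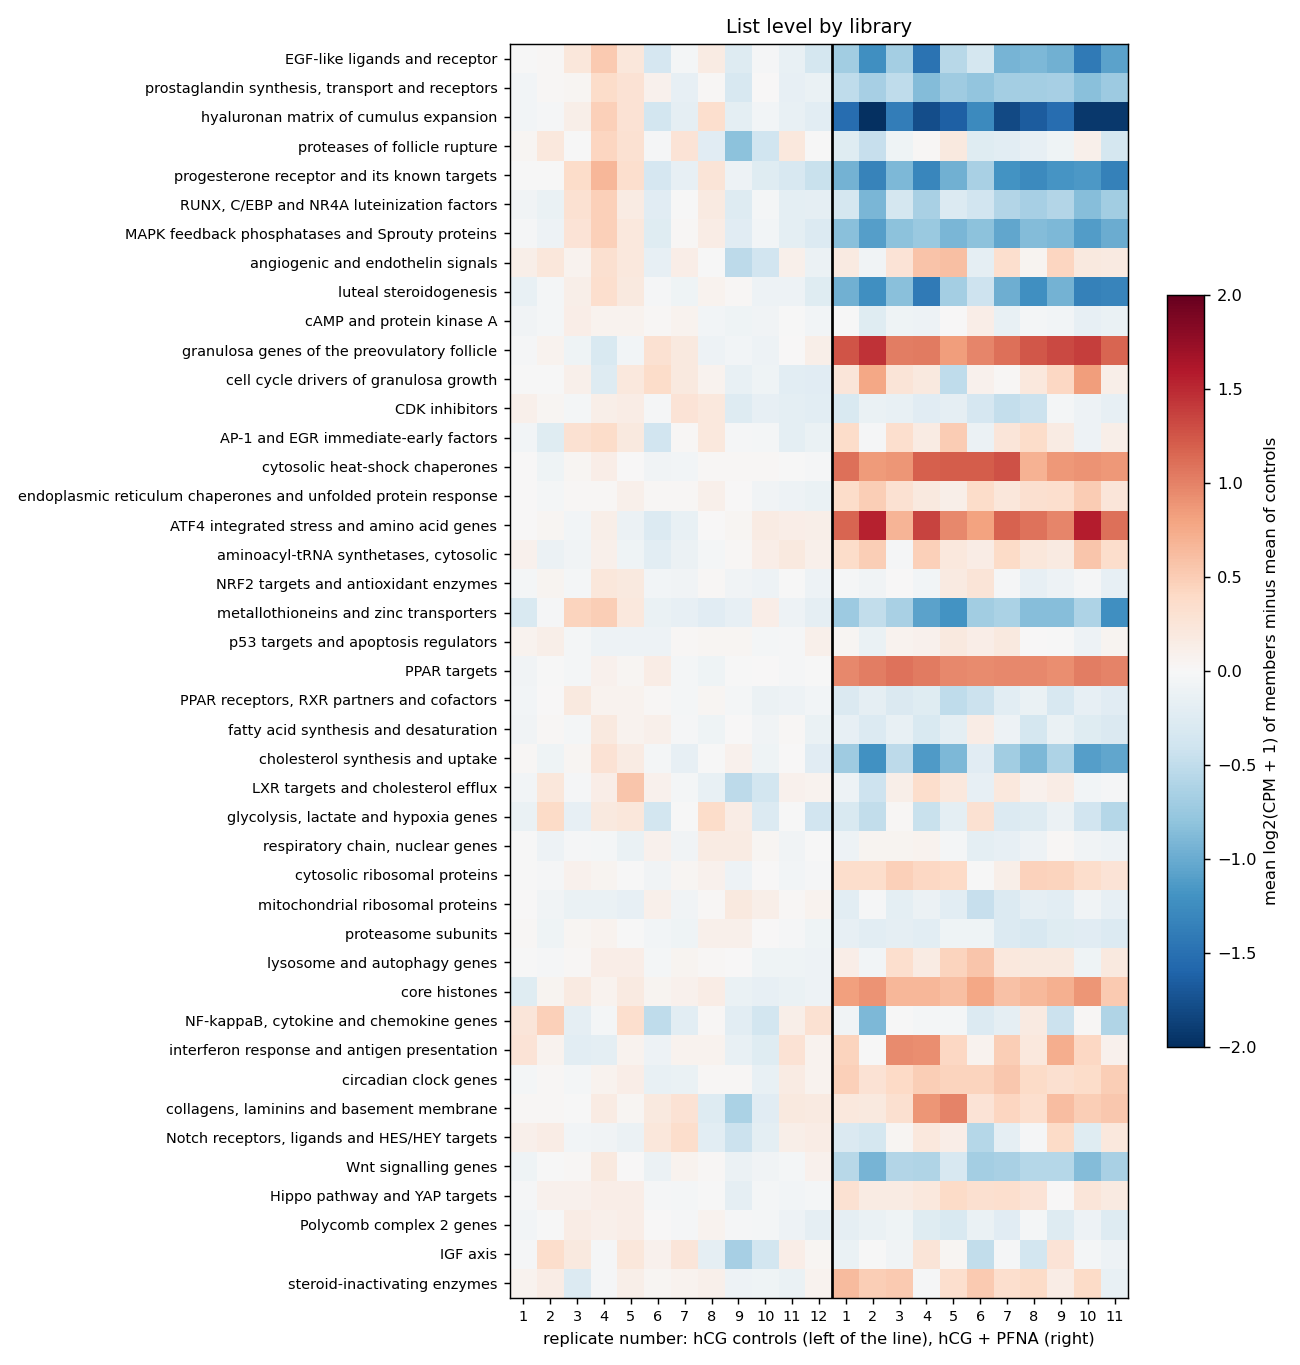
Level of each gene list (rows) in each library (columns: 12 controls by replicate number, then 11 PFNA libraries), as the mean log2(CPM + 1) of the tested members minus the mean over controls; red is higher and blue lower than controls, and values beyond 2 either way have the end colour. The hyaluronan, progesterone receptor, MAP kinase feedback and cholesterol rows are blue and the preovulatory granulosa, heat shock, ATF4 and PPAR rows red in every PFNA library. The labels do not say that shared replicate numbers pair libraries.

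Read by library, the lists differed in how evenly they moved. The mean log2(CPM + 1) of the PPAR target list, relative to the mean of the controls, was 0.93 to 1.08 in the 11 PFNA libraries and -0.08 to 0.15 in controls, a narrow band in both groups. The same measure for the heat shock list was 0.70 to 1.27 with PFNA, for ATF4 genes 0.68 to 1.57 and for preovulatory granulosa genes 0.84 to 1.44, with all 11 libraries above every control in each. For EGF-like genes it was -1.47 to -0.35, with PFNA replicate 6 the one library inside the control range of -0.35 to 0.53. The lists of luteal steroidogenesis (-1.41 to -0.41) and cholesterol synthesis (-1.21 to -0.23) had all 11 PFNA libraries below every control. For cholesterol synthesis the margin was very small, with PFNA replicate 6 at -0.2342 and the lowest control at -0.2296. The protease, LXR and IGF lists had 0 PFNA libraries beyond the controls in either direction.

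In lists of the translation, degradation and energy machinery, cytosolic ribosomal protein genes rose by small amounts. Of 62 cytosolic ribosomal protein genes 51 rose, 1 fell and 0 passed 2-fold, with a median of 0.37. Rps6 was at 576 to 682 CPM in controls (median 632) and 725 to 830.4 CPM with PFNA (median 787), with no overlap, and Rpl10 rose most at the naming level (0.84). Of 60 mitochondrial ribosomal protein genes 31 were lower (51.7%) and 13 higher (21.7%), with a median of -0.19. These values were not far from those of all genes at 20 to 100 CPM, 46.8% lower and 30.6% higher with a median of -0.14. Mrpl40 was at 20.8 to 39.8 CPM in controls (median 26.8) and 5.83 to 13.1 CPM with PFNA (median 7.24). Proteasome subunits fell in 22 of 35 cases and rose in 3, with Psmd13 at -0.68 and the interferon-linked Psme1 rising at 0.67. When libraries were scaled by their totals alone, which moved the median of all genes tested from 0.04 to 0.16, the medians of these 2 lists were -0.07 and -0.09, below that of all genes as before. Nuclear genes of the respiratory chain were mixed, 21 of 63 lower and 14 higher, with Ndufa4 at -1.21 and Atp5g2 at 1.21. In glycolysis 13 of 28 fell and 11 rose. Hk2 and Slc2a1, which commit glucose to the pathway, fell (-2.09 and -1.72) and Pfkm rose from 1.51 to 5.18 CPM (median 2.81) to 19.4 to 37.8 CPM (median 28.6). In lysosome and autophagy genes 14 of 30 rose and 6 fell, with Mcoln1, a lysosomal calcium channel, at 1.80. The linker histone gene H1f2 rose from 0.415 to 2.38 CPM (median 1.11) to 19.7 to 33.3 CPM (median 26.9), and H2az1 fell (-2.04); of 14 histone genes listed, 7 were in the table.

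Signalling and other lists gave counts in both directions, and those of the Notch, Polycomb and IGF lists were near the shares over all genes. Wnt genes fell in 11 of 19 cases and rose in 3, with a median of -0.68: Fzd1 was at 86.9 to 343 CPM in controls (median 145) and 18.8 to 38.6 CPM with PFNA (median 26.1) (log2 fold change -2.46, SE 0.21, edgeR adjusted p = 2.1e-10), Wnt4 and Sfrp4 fell (-1.53 and -2.29), and Fzd4 rose (1.89). Circadian clock genes rose in 12 of 18 cases and fell in 5. Per1 was at 108 to 171 CPM in controls (median 129.9) and 12.4 to 37.5 CPM with PFNA (median 30.5), and Per2 at 0.591 to 2.17 CPM in controls (median 1.11) and 8.90 to 12.9 CPM with PFNA (median 10.4), so these paralogs moved in opposite directions (-2.29 and 3.15). Tef and Nr1d1 rose (2.05 and 0.99). Of 15 Hippo pathway and YAP target genes 7 rose (46.7%) and 6 fell (40%), beside 38.0% and 35.2% over all genes. The YAP targets Ccn1, Ccn2 and Amotl2 rose (2.36, 1.58 and 2.04), beside the rise in smooth muscle marker sums, in which Tagln rose (3.67). Notch genes rose in 5 of 13 cases and fell in 4. Jarid2, a Polycomb partner, fell from 133 to 279.9 CPM (median 159) to 23.8 to 41.3 CPM (median 31.1) (log2 fold change -2.47, SE 0.12, edgeR adjusted p = 4.1e-15), while the catalytic subunit Ezh2 rose (0.43); 4 of 11 Polycomb genes rose and 4 fell. In the IGF axis 6 of 15 fell and 5 rose, with Pappa, the protease that frees IGF, at 177 to 352 CPM in controls (median 216) and 14.3 to 103 CPM with PFNA (median 40.4), and Irs1 higher (1.49). Hsd11b2, which inactivates glucocorticoid, rose from 4.57 to 12.99 CPM (median 6.28) to 26.4 to 201 CPM (median 100.1). Of 9 steroid-inactivating genes tested 4 rose (44.4%) and 2 fell (22.2%), beside 38.0% and 35.2% over all genes.

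Genes that other cell types can bring in were read beside those markers. Collagens, laminins and basement membrane genes rose in 13 of 20 cases and fell in 1 (median 0.63), with Col4a1 at 464 to 2063 CPM in controls (median 1292) and 1018 to 3538 CPM with PFNA (median 2071) and Lama1 at 1.20. Angiogenic and endothelin genes rose in 11 of 19 cases and fell in 6, with Edn1 at 3.34 to 7.54 CPM in controls (median 4.37) and 8.33 to 50.6 CPM with PFNA (median 20.3), Angpt2 at 2.08, Pgf at 3.88 and Egln3 at -2.93. Endothelial markers rose in 7 of 8 cases tested and fell in 0, for example Pecam1 (1.34 to 27.5 CPM in controls (median 18.1) and 8.20 to 75.4 CPM with PFNA (median 34.4)). The part of endothelial, theca and smooth muscle cells in these changes was not tested. Interferon and antigen presentation genes rose in 13 of 24 cases and fell in 4, with Isg15 not called. NF-kappaB and cytokine genes rose in 9 of 26 and fell in 10, near the shares over all genes, with Cxcl5 at -3.78 and Tnfaip3 at -1.56. Among immune markers 3 of 8 tested rose (37.5%) and 0 fell, so the share that rose was that of all genes (38.0%). The sum of the immune list is dominated by Cd3e, a T cell receptor gene, at 0 to 0.507 CPM in controls (median 0.171) and 153 to 656 CPM with PFNA (median 217). Values of the other T cell receptor chains, looked up after those of Cd3e were seen, were far lower: Cd3g 0 in all controls and 1.27 to 19.4 CPM with PFNA, Cd3d 0 in all controls and 0 to 5.05 CPM, and Cd247 at most 0.290 CPM and 1.17 CPM. Ptprc, the pan-leukocyte marker CD45, was at 0 to 4.25 CPM in controls (median 0.738) and 0 to 6.02 CPM with PFNA (median 1.91) and was called higher only without control replicate 5 (log2 fold change 1.42, adjusted p = 0.042). Without Cd3e the immune markers summed to 1.72 to 109 CPM in controls (median 26.4) and 4.04 to 142 CPM with PFNA (median 59.6). Oocyte markers rose in 9 of 16 cases and fell in 0, with Gdf9 at 17.3 to 61.7 CPM in controls (median 22.6) and 7.79 to 119.5 CPM with PFNA (median 54.8), and PFNA replicate 5 was the exception, with Zp3 listed at 0.

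PFNA libraries differed among themselves in Lhcgr, Pgr and Star. Lhcgr, the receptor for hCG, was at 25.5 to 113 CPM in controls (median 45.5) and 48.9 to 779 CPM with PFNA (median 92.6), and was called higher (log2 fold change 1.80, SE 0.42, edgeR adjusted p = 0.00053). Its levels exceeded the whole control range in 5 of the 11. Without PFNA replicates 5 and 6, a choice made after the data were seen, its log2 fold change was 0.93 (edgeR adjusted p = 0.0077). The highest levels were in PFNA replicates 6 (779 CPM) and 5 (365 CPM), which also had the highest Pgr (219 and 109 CPM) and Star (368 and 292 CPM) of their group, all below the lowest control of Pgr (450 CPM) and Star (466 CPM). Within the PFNA group, Lhcgr and Pgr rose and fell together (n = 11, Pearson r = 0.960, permutation adjusted p = 0.00056; Spearman rho = 0.973, adjusted p = 0.00075, over 56 relations of 8 measures in both groups). Without the 2 libraries farthest from the median of the gene on the x axis, r was 0.975. No other pair in the PFNA group passed, the next being Star with the summed Hspa1a and Hspa1b (r = 0.738) and with Lhcgr (r = 0.723), each with a permutation adjusted p of 0.056.

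In the 12 controls Pgr went with Star (r = 0.871, permutation adjusted p = 0.00056; rho = 0.937, adjusted p = 0.00075), with Ptgs2 (r = 0.916, adjusted p = 0.0020; rho = 0.846, adjusted p = 0.011) and with Lhcgr (r = 0.805, adjusted p = 0.013; rho = 0.881, adjusted p = 0.0034). Without the 2 farthest libraries these r were 0.827, 0.874 and 0.731. Lhcgr also went with Star (r = 0.891, permutation adjusted p = 0.002, and rho = 0.951, adjusted p = 0.00075), with r = 0.745 without the 2 farthest libraries. Runx1 with Ptgs2, Pgr and Star, and Ptgs2 with Star, also passed by Pearson r. Of these only Runx1 with Ptgs2 passed by Spearman rho. Between the groups Lhcgr was higher and Pgr lower with PFNA. No relation was pooled over the groups, since they form separate clusters. All of these values share the library scaling, and r on library totals alone was 0.955 for Lhcgr with Pgr in the PFNA group and 0.754 in the controls.

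**Figure D5:**
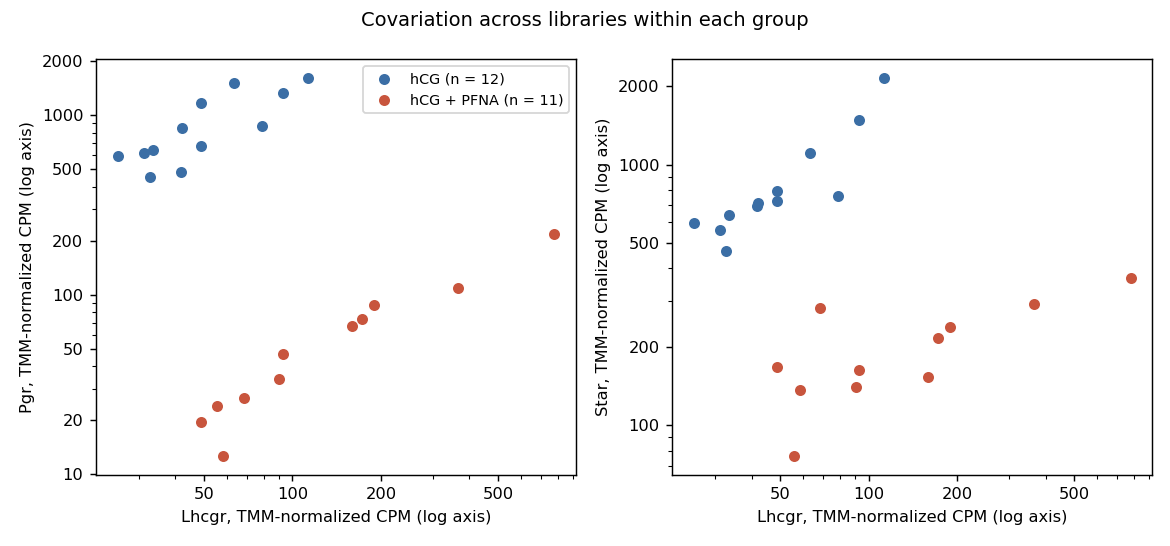
TMM-normalized CPM of Pgr (left) and Star (right) on the y axes against Lhcgr on the x axes (all log axes), 1 point per library, 12 controls (blue) and 11 PFNA libraries (red). Pgr and Lhcgr rise together in each group, and at any shared Lhcgr level the PFNA libraries have less Pgr and less Star.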

How the data were processed

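The labels' protocols state poly-A selection and random hexamer priming after a kit for small RNA inputs. The authors deposited estimated counts per gene, of which 9.82% were not whole numbers (tolerance 0.01), and these were rounded. The submitters' processing notes list Partek, Bowtie2 and HISAT2 without versions or roles; the counting tool, genome build and use of strand are not given in the sources used here, so overlapping and antisense genes cannot be told apart. Of 18104 symbols matched to RefSeq GRCm38.p6, 64.4% had the same start, and coordinates are given on that build, 1-based. Symbols turned into dates (26) were left out of the genes named.

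Of 18274 genes, 13441 passed filterByExpr and were tested with edgeR 4.0.16 in R 4.3.3 (TMM normalization, quasi-likelihood test, robust fit, Benjamini-Hochberg adjustment over all genes tested), with glmTreat for changes beyond 2-fold. CPM are TMM-normalized. Library measures and correlations, on log2(CPM + 1), used two-sided permutation tests with 100000 resamples. Totals were 10600931 to 19511531 counts. Each pair of libraries of a group differed by more than sampling noise (chi-square per degree of freedom at least 7.54), so none was treated as a library deposited more than once; this does not show that they came from separate animals or cultures.

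The 51 gene lists (1091 genes) and all other choices were made with earlier results of these data known, and the lists share members, so no list was tested. Genes named are those with the 10 smallest p in each direction (at least 2-fold and 10 CPM), Ptgs2, Runx1, Pgr and Jun, a panel in the lists, and the 3 largest rises and falls per list at 10 CPM or more; some of these are not reported here. Alternatives were RLE size factors, library totals, 2 other filters, DESeq2 1.42.0, a replicate block and leaving out each library. The maturation window was not analysed here.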

Additional observations from a re-analysis of the deposited data

How the results depend on the processing

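With RLE size factors 5256 genes were called higher and 4580 lower. Scaled by library totals alone the counts were 5751 and 3910, and the median over all genes moved from 0.04 to 0.16. With DESeq2 they were 6925 and 4724, and without PFNA replicates 5 and 6, a setting added after the data were seen, 5250 and 4880. The count of genes called higher beyond 2-fold, 1380, was 2722 without a filter on low counts and 838 with a mean of at least 5 CPM, since the sets of genes tested differ. Leaving out each library in turn gave 5004 to 5170 genes higher and 4646 to 4862 lower, and beyond 2-fold 1321 to 1415 and 673 to 749.

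A few genes that were not called changed sign, and none of them became a call. Plat had log2 fold changes of 0.019 (RLE size factors), 0.13 (library totals), 0.074 (mean of at least 5 CPM), 0.016 (DESeq2) and 0.037 (without PFNA replicates 5 and 6), and -0.044 to 0.052 when each library was left out. Dusp1 had 0.086 (library totals) and 0.022 (mean of at least 5 CPM), and Atf4 -0.021 without a filter and -0.042 to 0.044 by library left out. Ptges was -0.021 to 0.19 by library left out. The cause was not tested.

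Replicate numbers are shared by the groups, but the labels do not say that they pair libraries. Over 11 pairs, the correlation of deviations from the group means was -0.193 to 0.073 (median -0.061), 0 pairs were over 0.1, and 0 PFNA libraries correlated best with the control of their own number. With the replicate number as a block over 22 libraries, 4657 genes were called higher and 4641 lower, and 1287 and 705 beyond 2-fold. Among genes named, the calls of Amh and Edn2 were lost with the block (adjusted p = 0.13 and 0.14). Depth limits genes of a few CPM, where most calls are higher.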

Other observations

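Markers of theca and stroma did not move as a block. Of 14 tested, 8 rose and 2 fell. Pdgfra, a growth factor receptor of stromal and theca cells, was at 12.6 to 120.4 CPM in controls (median 69.8) and 9.76 to 21.1 CPM with PFNA (median 14.8) and fell (log2 fold change -2.21, SE 0.25, edgeR adjusted p = 2.4e-08), and Nr2f2, a nuclear receptor of the same cells, fell as well (log2 fold change -0.74). Gli1, a hedgehog target that theca cells express, was at 0.523 to 7.47 CPM in controls (median 4.09) and 2.63 to 32.1 CPM with PFNA (median 19.6) and rose (log2 fold change 2.27, SE 0.36, edgeR adjusted p = 4.5e-06), and Enpep and Aspn rose (1.11 and 1.86). The direction thus differed between genes that are read as markers of the same compartment.

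Krt8, a keratin of the surface epithelium and of some granulosa cells, was at 5.04 to 18.2 CPM in controls (median 12.9) and 22.8 to 57.9 CPM with PFNA (median 43.8), with every PFNA library above every control (log2 fold change 1.77, SE 0.17, edgeR adjusted p = 7.6e-10). Among the Notch ligands, Jag1 fell (log2 fold change -0.84) while Jag2 and Dll4 rose (1.47 and 1.82), and of the receptors Notch2 fell and Notch3 rose (1.08). Irf9 and Irf1, factors of the interferon response, fell (-1.25 and -1.01), whereas Cxcl10 and Bst2, targets of that response, rose (2.76 and 1.32).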
